A study of Mus musculus with 8 samples.

Results

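Neutrophil granule and maturation genes were examined in mouse bone marrow cells labelled as hematopoietic stem cells. The set holds 10 genes, Lrg1, Lcn2, Ngp, Camp, Ltf, S100a8, S100a9, Chi3l3, Mmp8 and Retnlg, among 24213 genes with a value on every array. Of these, 9 were listed under their own symbol, and Chi3l3 was listed under its current RefSeq symbol Chil3, which is used below. Each was read by 1 feature, a group of probes along the gene. The 10 genes were selected on the knockout and control signals of these same 8 arrays, whose results were known when the set was drawn up, so the differences between genotypes are given as descriptions, without a test, and support nothing by themselves.

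All 8 mice were of the C57BL/6 strain and carried floxed alleles of Atg12, an autophagy gene whose product is joined to Atg5 when autophagosomes form. The 4 control mice were Atg12flox/flox, and the 4 conditional knockout mice were Atg12flox/flox:Mx1-Cre, in which an interferon-responsive promoter drives the recombinase. At 4 weeks of age both genotypes were given poly(I:C), an interferon-inducing analogue of viral RNA. Bone marrow was collected 2 to 3 months afterwards, when mice were 3 to 4 months old. Lineage-negative cells with c-Kit, Sca-1 and CD150 and without Flk2 and CD48 were double sorted from individual mice, and 1 array was run per sample. Because no control carried Mx1-Cre, an effect of the recombinase and an effect of Atg12 loss cannot be told apart.

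Neutrophils are made from bone marrow progenitors in a fixed order. Promyelocytes fill primary granules with enzymes such as myeloperoxidase, myelocytes and metamyelocytes then make the proteins of secondary granules, and later stages add gelatinase granules and the surface receptors of the circulating cell. Transcription of the secondary granule genes in mice depends on C/EBP family factors, of which C/EBP epsilon is the one needed for granule maturation. Several of the genes, Lcn2, Lrg1, S100a8 and S100a9 among them, are also induced by inflammatory cytokines in cells other than neutrophils.

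The 250 bases before the annotated start of 6 of the genes are shown, because these genes form the pairs of highest correlation across the arrays. Each is written 5′ to 3′ on the strand of the gene, from RefSeq on the GRCm38.p6 build, and capitals mark matches to a C/EBP motif (TTGCNNAA) or a PU.1 motif (GAGGAA) on either strand.
Lrg1, chr17:56121947-56122196, minus strand: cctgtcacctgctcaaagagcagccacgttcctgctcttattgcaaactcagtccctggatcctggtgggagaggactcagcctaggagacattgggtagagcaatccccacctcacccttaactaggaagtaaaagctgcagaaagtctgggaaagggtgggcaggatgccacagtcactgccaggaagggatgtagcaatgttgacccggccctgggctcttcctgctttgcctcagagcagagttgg
Lcn2, chr2:32387740-32387989, minus strand: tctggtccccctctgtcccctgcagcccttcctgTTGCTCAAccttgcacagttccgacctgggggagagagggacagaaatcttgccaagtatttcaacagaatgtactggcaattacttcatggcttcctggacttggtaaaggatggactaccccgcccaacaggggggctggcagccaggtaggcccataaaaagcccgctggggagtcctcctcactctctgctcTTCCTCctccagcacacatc
S100a8, chr3:90668821-90669070, plus strand: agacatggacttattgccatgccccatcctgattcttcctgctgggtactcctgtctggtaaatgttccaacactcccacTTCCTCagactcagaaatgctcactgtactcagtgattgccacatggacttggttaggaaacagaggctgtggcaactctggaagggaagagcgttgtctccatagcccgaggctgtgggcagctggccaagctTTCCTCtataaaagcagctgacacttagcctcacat
S100a9, chr3:90695722-90695971, minus strand: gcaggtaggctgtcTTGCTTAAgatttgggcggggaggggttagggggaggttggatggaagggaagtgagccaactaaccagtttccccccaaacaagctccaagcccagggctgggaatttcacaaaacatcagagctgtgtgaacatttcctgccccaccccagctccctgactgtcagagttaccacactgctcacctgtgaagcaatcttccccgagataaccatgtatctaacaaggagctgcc
Ngp, chr9:110419558-110419807, plus strand: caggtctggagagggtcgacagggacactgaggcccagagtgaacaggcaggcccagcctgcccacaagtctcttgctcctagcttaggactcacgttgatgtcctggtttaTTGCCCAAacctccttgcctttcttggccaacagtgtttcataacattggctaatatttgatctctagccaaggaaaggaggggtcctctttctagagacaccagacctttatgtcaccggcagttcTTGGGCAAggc
Camp, chr9:109849457-109849706, minus strand: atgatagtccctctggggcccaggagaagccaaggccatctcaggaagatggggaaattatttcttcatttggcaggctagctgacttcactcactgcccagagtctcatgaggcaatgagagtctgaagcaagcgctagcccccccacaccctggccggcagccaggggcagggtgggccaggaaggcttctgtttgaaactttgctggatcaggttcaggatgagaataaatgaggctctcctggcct

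A C/EBP match stood in the window of 6 of the 10 genes, namely Lcn2, Ngp, Ltf, S100a9, Mmp8 and Retnlg, against 9.56% of 32851 RefSeq promoter windows of the same length. Ngp alone among the 10 had 2 C/EBP matches, starting at positions -138 and -11 from the gene start. A PU.1 match stood in 4 of the 10 windows (Lcn2, Ltf, S100a8 and Mmp8) against 23.3% of all windows. A STAT motif (TTCNNNGAA) was matched in 1 of the 10, Chil3, against 7.02% of all windows. No letters of any of the 3 motifs were found in the Lrg1 or Camp window. The motifs were searched on both strands and no 2 matches overlap. S100a8 and S100a9 are neighbours on chromosome 3, which also holds Chil3, and Camp, Ngp, Ltf and Mmp8 lie on chromosome 9.

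The deposited values are RMA signals on the log2 scale, so a difference of 1 is a 2-fold change of signal. Each SE is limma's moderated standard error, which draws the variance of a gene toward that of the other genes. For genes of wide spread it is smaller than their own SDs would give. Atg12 checked the labels, and its signal was 6.44 ± 0.08 (SD, n = 4) in controls and 5.50 ± 0.13 (SD, n = 4) in knockouts, a log2 difference of -0.93 (SE 0.10; limma adjusted p = 0.031). The highest reading of Xist or Y-linked genes where no such transcript is expected, 3.20, is used below as the absent level, at or under which a signal is not told apart from no transcript. Of 12 genes of the sort gate and of stem cells, 10 had a mean above it. Slamf1, the gene of CD150, did not, at 2.22 to 2.98, nor did Mecom, a stem cell transcription factor. Cd48 and Flt3, the genes of CD48 and Flk2, which the gate excludes, read 8.53 to 8.69 and 4.78 to 5.61. These readings go against the labelled gate at the level of RNA, so the samples are called sorted cells below. Ly6a, a gene of Sca-1, read 3.55 to 4.39 in controls and 4.24 to 5.02 in knockouts, a difference of 0.65 beside that of Lcn2 given below, and its part in the results was not tested. Knockouts 3 and 4 stood apart. Knockout 4 had both Xist signal (8.12) and Y-linked signal (mean 5.83), although each sample is described as coming from an individual mouse, and knockout 3 lay alone on the first principal component (39.5, against -14.8 to 12.2 on the other arrays). The differences without these arrays are given for each gene above the absent level. Xist signal without Y-linked signal was found on control 4 and knockouts 1 and 2, and Y-linked signal without Xist on controls 1, 2 and 3 and knockout 3.

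Signal above the absent level was found for 7 of the 10 genes, Lrg1, Lcn2, Ngp, Camp, S100a8, S100a9 and Chil3, each on 8 of 8 arrays. The other 3 genes, Ltf, Mmp8 and Retnlg, were not above it on any array. Ltf, encoding the iron-binding secondary granule protein lactoferrin, read 2.44 to 2.88 in controls and 2.20 to 2.48 in knockouts. Mmp8, encoding neutrophil collagenase, read 2.31 to 2.99 in controls and 2.32 to 3.04 in knockouts. Retnlg, encoding resistin-like gamma of mature mouse neutrophils, read 2.20 to 2.85 in controls and 2.11 to 2.84 in knockouts. No fold change is given for these 3 genes.

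Over all genes, 60.7% had a mean above the absent level. Among neutrophil genes, 9 of 9 primary granule genes had a mean above the absent level, as had 12 of 19 other granule and antimicrobial genes, 7 of 11 late cytosolic genes and 11 of 16 genes of the mature neutrophil surface. Mpo, encoding myeloperoxidase, read 12.20 ± 0.03 (SD, n = 4) in controls and 12.22 ± 0.05 (SD, n = 4) in knockouts. Below the level were Ly6g, the usual surface marker of mature mouse neutrophils, Fpr1, Fpr2, C5ar1 and Ceacam10 at the surface, the stefins Stfa1, Stfa2, Stfa2l1 and Stfa3, and Mmp9, Mmp25, Olfm4, Bpi, Chil1, Chil4 and Chit1 among granule genes. Ly6g read 1.95 to 2.66 over the 8 arrays. In bulk RNA, fewer cells of a type and less RNA per cell cannot be told apart.

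**Figure D1:**
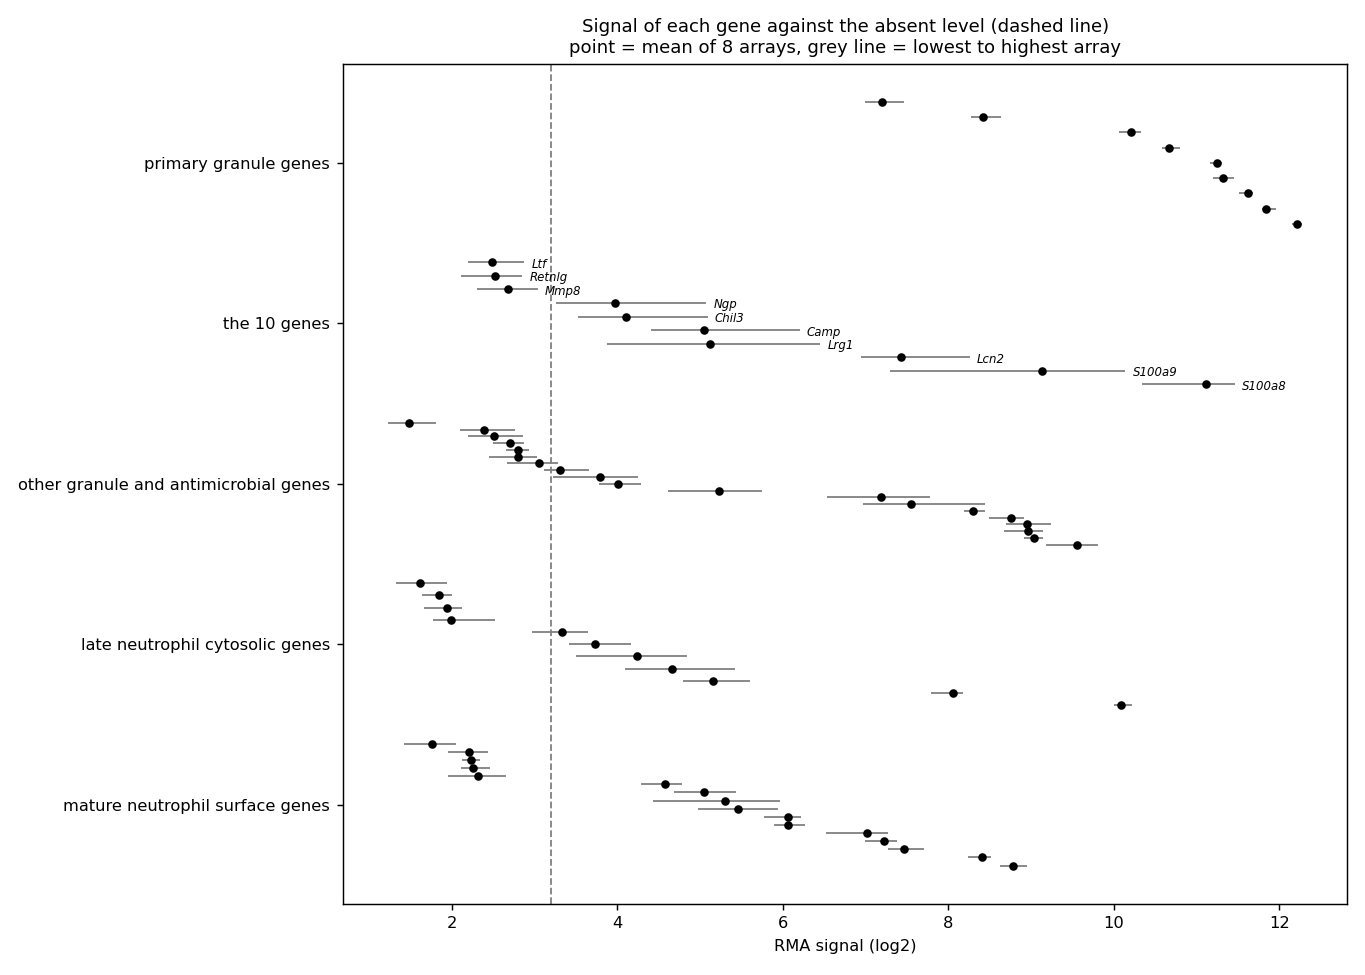
Mean RMA signal (log2) of each gene over 8 arrays, with a grey line from the lowest to the highest array, for the 10 genes and 4 lists of other neutrophil genes. The dashed line is the absent level of 3.20, and Ltf, Mmp8 and Retnlg lie below it while S100a8 and the primary granule genes lie far above it. Signals of different genes come from different probes and are not on a common scale.

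Lrg1 encodes leucine-rich alpha-2-glycoprotein, a secreted protein that neutrophils store in granules and that modifies TGF-beta signalling. Its signal in control replicates 1 to 4 was 3.88, 4.28, 5.05 and 4.49, and in knockout replicates 1 to 4 it was 5.55, 6.02, 6.45 and 5.21. All 4 knockout arrays were above all 4 control arrays, with control 3 and knockout 4 closest to each other. The group means were 4.43 ± 0.49 and 5.81 ± 0.54 (SD, n = 4 each), a log2 difference of 1.38 (SE 0.28), or 2.60-fold. The difference lay between 1.16 (without knockout 3) and 1.59 (without control 3) when 1 array was left out, and was 1.58 without knockout 4 and 1.36 without knockouts 3 and 4.

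Lcn2 encodes lipocalin 2, a secondary granule protein that binds bacterial siderophores and so withholds iron. Control replicates 1 to 4 read 6.95, 7.02, 7.42 and 7.01, and knockout replicates 1 to 4 read 7.64, 7.44, 8.26 and 7.69. Knockout 2 lay only just above control 3, and the groups did not overlap. The difference was 0.66 (SE 0.17), or 1.58-fold, from 7.10 ± 0.21 to 7.76 ± 0.35 (SD, n = 4 each). It was 0.68 without knockout 4, 0.44 without knockouts 3 and 4, and 0.49 without knockout 3, which gave the highest Lcn2 and the highest Lrg1 reading of the 8 arrays.

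Lrg1 and Lcn2 were the 2 of 10 genes whose groups did not overlap, both with higher knockout signal. Among all genes, 1.36% had groups that did not overlap with higher knockout signal. No member had groups that did not overlap with lower knockout signal, where 1.54% of all genes did. Sex-linked signal differed between the groups, and its part in the difference of either gene was not tested. Because the groups of both genes did not overlap, the direction had to be the same in any subset of these arrays. The values by kind of array are therefore descriptions of size only, and the knockout with both Xist and Y-linked signal is in neither kind below. Among arrays with Xist alone (1 control, 2 knockouts) the difference was 1.29 for Lrg1 and 0.53 for Lcn2. Among arrays with Y-linked signal alone (3 controls, 1 knockout) it was 2.05 and 1.13, values that rest on knockout 3 as the only knockout. With Xist signal as a covariate it was 1.53 for Lrg1 and 0.85 for Lcn2.

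**Figure D2:**
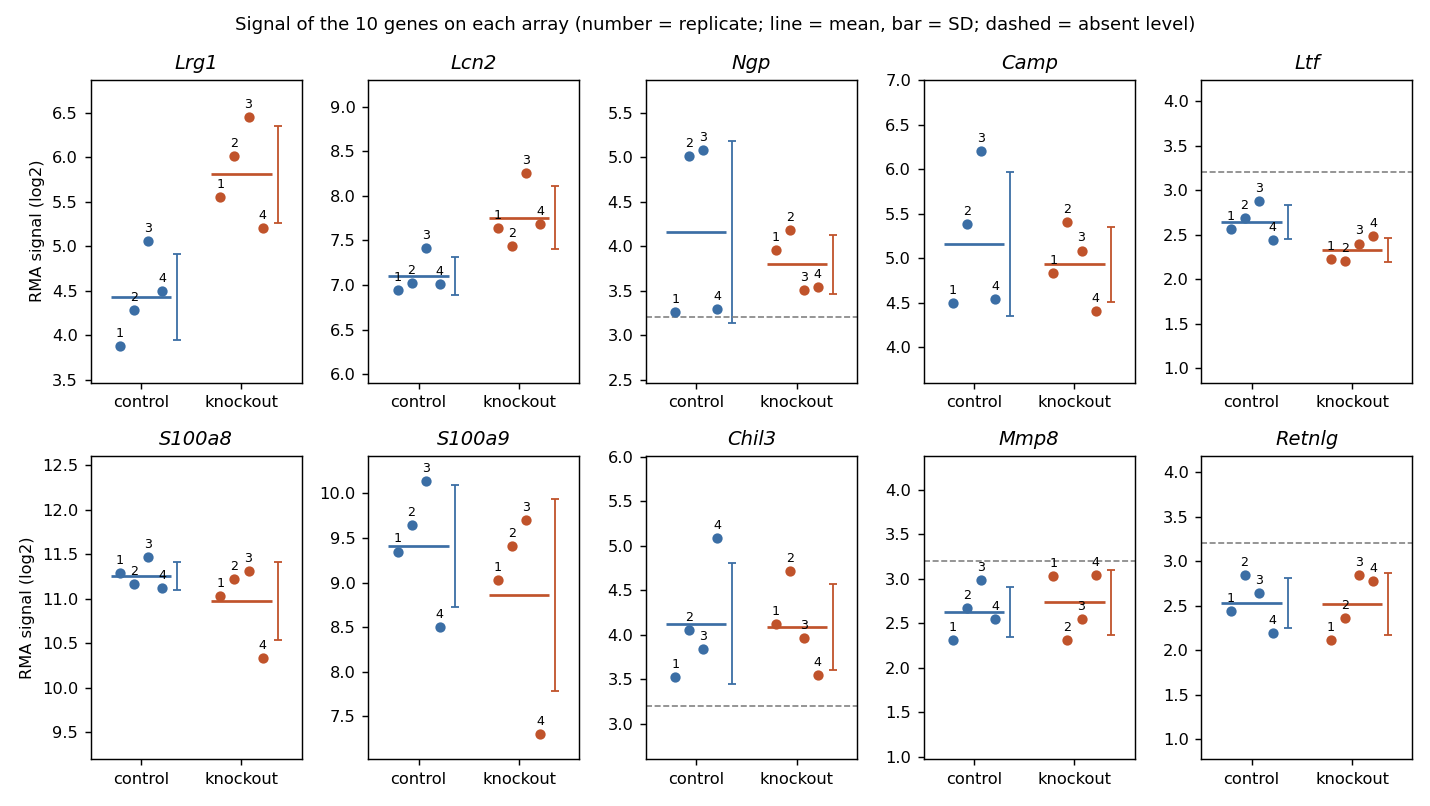
RMA signal (log2) of each of the 10 genes on the 4 control and 4 knockout arrays, numbered by replicate, with the group mean as a line and the SD as a bar; every panel spans the same number of log2 units, and the dashed line is the absent level. Lrg1 and Lcn2 show all 4 knockout arrays above all 4 control arrays, S100a8 and S100a9 show knockout 4 far below the rest, and Ltf, Mmp8 and Retnlg stay under the dashed line.

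S100a8 and S100a9 encode the calcium-binding subunits of calprotectin, an abundant cytosolic protein of neutrophils that also binds zinc and manganese. S100a8 read 11.29, 11.16, 11.47 and 11.12 in controls 1 to 4 and 11.03, 11.22, 11.31 and 10.34 in knockouts 1 to 4. Knockout 4 was the lowest array, and the other 3 knockouts lay within or just below the control range. S100a9 read 9.35, 9.65, 10.14 and 8.50 in controls 1 to 4 and 9.03, 9.41, 9.70 and 7.30 in knockouts 1 to 4. The groups overlapped for both genes, and knockout 4 was again the lowest.

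The difference was -0.28 (SE 0.19) for S100a8 and -0.55 (SE 0.48) for S100a9. Without knockout 4, the array with both Xist and Y-linked signal, it was -0.07 for S100a8 and -0.03 for S100a9. Without knockout 3 it was -0.40 and -0.83, and without both arrays -0.13 and -0.19. Among arrays with Xist alone the S100a9 difference was 0.72, and with Xist signal as a covariate it was -0.06. Any difference of S100a9 between the genotypes was thus within the spread between arrays, and its direction changed with the arrays compared.

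Camp and Ngp encode relatives of one another, the cathelicidin precursor from which the antimicrobial peptide CRAMP is cut and the cathelicidin-related neutrophilic granule protein. Camp read 4.49, 5.39, 6.21 and 4.55 in controls 1 to 4 and 4.84, 5.40, 5.09 and 4.40 in knockouts 1 to 4. Ngp read 3.26, 5.01, 5.08 and 3.29 in controls 1 to 4 and 3.95, 4.19, 3.51 and 3.54 in knockouts 1 to 4. For Ngp the knockout arrays all lay inside the control range, with controls 2 and 3 high and controls 1 and 4 barely above the absent level.

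The difference was -0.23 (SE 0.35) for Camp and -0.36 (SE 0.41) for Ngp. Without control 3, the array with the highest signal of both genes, it was 0.12 for Camp and -0.06 for Ngp. Without knockout 3 it was -0.28 and -0.27, without knockout 4 it was -0.05 and -0.28, and without both it was -0.04 and -0.09. Within arrays with Xist alone it was 0.57 for Camp and 0.78 for Ngp, and within arrays with Y-linked signal alone it was -0.28 and -0.94. No direction can be given for either gene.

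Chil3 (Chi3l3) encodes Ym1, a chitinase-like lectin made by mouse neutrophil precursors, monocytes and macrophages. It read 3.52, 4.05, 3.84 and 5.09 in controls 1 to 4 and 4.12, 4.72, 3.96 and 3.55 in knockouts 1 to 4. Control 4 was the highest array, and the groups overlapped, with a difference of -0.04 (SE 0.32) that became 0.28 without control 4, 0.004 without knockout 3, 0.14 without knockout 4 and 0.29 without knockouts 3 and 4. Chil4, a close paralog whose transcripts could share probes with Chil3, was not above the absent level. Control 4 also had the highest mean over 5 eosinophil genes, 5.72, against 4.86 to 4.95 on the other controls and 4.60 to 5.01 on the knockouts. Of these 5, Ccr3 was not above the absent level, and Ear2, an eosinophil ribonuclease, read 5.33 on control 4 against 3.69 or less on every other array. Epx (5.63) and Prg2 (9.49) were also highest on control 4. Siglec5, the listed symbol of Siglecf, was not, at 5.90 against 5.91 and 5.94 on controls 1 and 2. The mean of 12 monocyte and macrophage genes was 6.29 on control 4, against 6.05 to 6.17 on the other controls. It was 6.17 to 6.32 on the knockouts. The part of these eosinophil and monocyte genes in the Chil3 reading was not tested.

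Across the 10 genes the median difference was -0.13, against 0.002 over all genes, and 3 of 10 differences were above 0, against 50.6% of all genes. In the limma fit over all genes, 0 of the 10 had an adjusted p under 0.05, where 0.00413% of all genes did. At an unadjusted p under 0.05 there were 3, where 4.94% of all genes had one. Of these, 2 were higher in knockout (Lrg1 and Lcn2), against 2.43% of all genes, and 1 was lower (Ltf, below the absent level), against 2.5% of all genes. Nothing is read from these counts because the choice of genes used the same contrast.

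How the genes varied between mice of one genotype does not use that contrast. The pooled SD within groups was 0.90 for S100a9, 0.76 for Ngp, 0.65 for Camp, 0.59 for Chil3, 0.52 for Lrg1, 0.33 for S100a8 and 0.29 for Lcn2. The median over the 14697 genes with a mean above the absent level was 0.17. S100a9 varied more than 99.9% of those genes, Ngp more than 99.8%, Camp more than 99.7% and Lcn2 more than 88.5%. The spread depends on the level of signal and on the amplification of small RNA amounts as well as on the mice, and their parts were not tested.

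Control 3 was the highest array for 4 of the 7 genes and control 1 the lowest for 4, while knockout 4 was the lowest for 3. Over 21 pairs the median correlation across the 8 arrays was 0.08, and 0.40 after the group means were removed. Correlations are given as descriptions over 8 arrays that differ in genotype and sex-linked signal.

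The 3 pairs described next had the highest correlations of the 21, and were picked for that. S100a8 and S100a9 had Pearson r = 0.94 and Spearman rho = 0.88, with r = 0.94 after the group means were removed. Without control 3 and knockout 4, the arrays farthest from the S100a8 median, r was 0.61, so part of the relation rests on those arrays. Ngp and Camp had r = 0.87 and rho = 0.79, with r = 0.87 after the group means were removed and 0.76 without controls 2 and 3. Lrg1 and Lcn2 had r = 0.89 and rho = 0.88. The next pair was Camp and S100a9, with r = 0.76. For Lrg1 and Lcn2, because both genes separated the genotypes, the value after the group means were removed, 0.68, is the one free of that difference. By that measure Lrg1 was at least as close to Camp (0.74), S100a8 (0.74) and S100a9 (0.70), so the relation is not particular to Lcn2.

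For some pairs the correlation changed once the group means were removed. Lrg1 and S100a8 had r = -0.01 over the 8 arrays and 0.74 after the group means were removed, and Lrg1 and S100a9 had 0.08 and 0.70. Lrg1 and Camp had 0.23 and 0.74. Over the 4 knockouts Lrg1 had r = 0.89 with S100a8 and 0.88 with S100a9, and over the 4 controls 0.51 and 0.39. The relation thus rested more on the knockouts, among which knockout 4 was the lowest for each of these genes. As a description only, the knockout mean was above the control mean for Lrg1 and below it for S100a8 and S100a9. The S100a9 difference was 0.72 among arrays with Xist alone and -0.03 without knockout 4. For other pairs the correlation changed little, from 0.76 to 0.75 for Camp and S100a9, from 0.61 to 0.59 for Camp and S100a8, and from 0.56 to 0.51 for Ngp and S100a9. After the group means were removed, 19 of the 21 pairs had a correlation above 0.

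**Figure D3:**
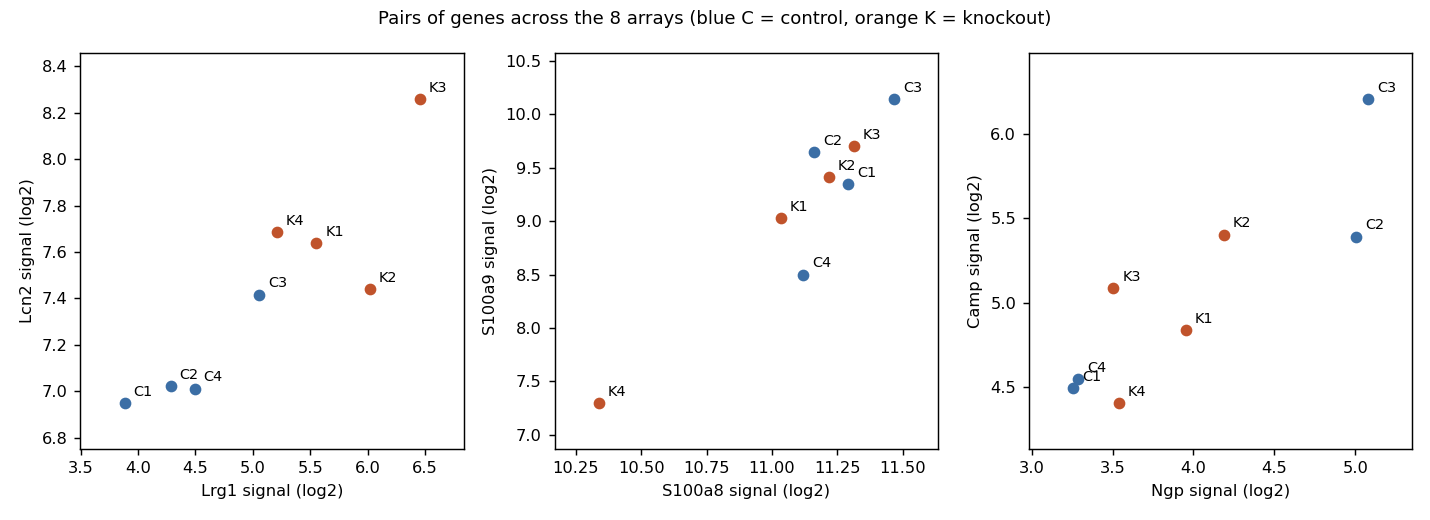
RMA signal (log2) of 3 pairs of genes on the 8 arrays, with controls in blue (C) and knockouts in orange (K), numbered by replicate. Each pair rises together, S100a8 and S100a9 with knockout 4 as the lowest point, Ngp and Camp with control 3 as the highest, and Lrg1 and Lcn2 with all knockouts above all controls on both axes.

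The 5 genes most like the mean standardized signal of these 7 genes, out of 17785 with an ordinary symbol, were Dpcr1 (r = 0.98, rho = 0.95), Mfsd9 (r = 0.93, rho = 0.98), Dhx29 (r = 0.93, rho = 0.90), Hccs (r = 0.92, rho = 0.93) and Ifltd1 (r = 0.92, rho = 0.88), over 8 arrays. Dpcr1, Mfsd9 and Ifltd1 had mean signals below the absent level. None of the 5 is in a list of neutrophil genes used here. They are the highest of 17785 candidates over only 8 arrays, and how high such top values would be by chance was not tested.

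Other genes of granulocyte formation were taken from 7 lists, of which 91 genes of 92 were measured. None passed the limma test over all genes (adjusted p under 0.05), where 0.00413% of all genes did. At an unadjusted p under 0.05 there were 12 of 91, 11 higher and 1 lower in knockout, or 13.2% against 4.94% of all genes. The groups did not overlap for 10 of 91, 9 higher and 1 lower, or 11% against 2.9% of all genes, and 7 of these 10 had a mean above the absent level. The median difference of the 91 genes was 0.02, against 0.002 over all genes. The lists were drawn up with earlier results of these arrays known, which include several of these genes, so the counts are descriptions.

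Granule and antimicrobial genes had 4 of 19 members without overlap, all higher in knockout, where 1.36% of all genes were, and a median difference of 0.02. Of the 4, Bpi and Mmp9 had means below the absent level, and the others were Cybb and Hp. Cybb, encoding the electron-transferring chain of the oxidase with which phagocytes make superoxide, held in secondary granule membranes, was at 6.60, 6.53, 6.70 and 7.19 in controls and 7.78, 7.45, 7.62 and 7.67 in knockouts. The groups were separate, with control 4 closest to the knockouts, and the difference was 0.87 (SE 0.15; limma adjusted p = 0.478). Without control 4 it was 1.02 and passed the threshold (limma adjusted p = 0.0369). Hp, encoding haptoglobin, an acute-phase protein also stored in granules, differed by 0.36 (SE 0.10; limma adjusted p = 0.929), with all 4 knockout arrays above the controls.

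Late cytosolic genes had a median difference of 0.11 over 11 genes. Of these, 1 had groups without overlap, higher in knockout, where 1.36% of all genes did, namely Stfa1, below the absent level. Wfdc17 was at 4.04 ± 0.50 in controls and 4.46 ± 0.27 in knockouts (SD, n = 4 each). The aspartic protease gene Asprv1 was at 3.23 ± 0.31 and 3.43 ± 0.22 (SD, n = 4 each), above the absent level on 2 of 4 controls and 3 of 4 knockouts. The groups overlapped for both Wfdc17 and Asprv1. Genes of the mature surface had a median difference of -0.06 over 16 genes, with 0 without overlap, against 2.9% of all genes. The chemokine receptor gene Cxcr2, which mature neutrophils use to leave the marrow, was at 5.54 ± 0.41 and 5.06 ± 0.50, and the leukotriene B4 receptor gene Ltb4r1 at 7.17 ± 0.11 and 6.88 ± 0.26 (SD, n = 4 each). Neither passed the test.

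Primary granule genes differed little, with a median difference of 0.03 over 9 genes and 0 without overlap, against 2.9% of all genes. Ctsc, encoding the protease that activates granule serine proteases, differed by 0.24 (SE 0.10), and the granule proteoglycan gene Srgn by 0.06 (SE 0.09).

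Among 11 transcription factor genes the median difference was -0.04. Groups did not overlap for 2 of them, both higher in knockout, where 1.36% of all genes were. Cebpb, the C/EBP member used in stress-driven granulopoiesis, was at 5.86, 5.57, 5.63 and 5.64 in controls and 5.98, 5.98, 6.26 and 6.05 in knockouts. All knockout arrays were above all controls, and the difference of 0.39 (SE 0.10) did not pass the test (limma adjusted p = 0.88). Irf8, a monocyte fate factor, differed by 0.34 (SE 0.12; limma adjusted p = 0.991). Cebpe, needed for secondary granules and named here after its values were seen, was at 6.94 to 7.44 in controls and 6.78 to 7.27 in knockouts, and the groups overlapped, with a difference of -0.26 (SE 0.15).

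In the STAT3 pathway and acute-phase list, through which G-CSF and IL-6 act, the median difference was 0.11 over 13 genes. Groups did not overlap for 3 of 13, 2 higher and 1 lower, where 1.36% and 1.54% of all genes were. The 2 higher genes were Pim1, a STAT-induced kinase (0.47, SE 0.15), and Il4ra, a receptor chain of interleukin 4 (0.17, SE 0.09), named here after their values were seen. The groups overlapped for Bcl3, an atypical inhibitor of NF-kB that is induced by STAT3, which was at 5.18 ± 0.23 in controls and 5.64 ± 0.22 in knockouts (SD, n = 4 each), a difference of 0.46 (SE 0.14; limma adjusted p = 0.991). The lower gene was Il1r1, the signalling receptor of interleukin 1, at 4.82 ± 0.13 and 4.41 ± 0.21, a difference of -0.41 (SE 0.12; limma adjusted p = 0.991). Among receptors of the secreted products, Slc22a17, a lipocalin 2 receptor, was at 4.26 ± 0.47 and 4.61 ± 0.25, and Tlr4, a receptor of calprotectin, at 5.52 ± 0.16 and 5.77 ± 0.12 (SD, n = 4 each). Neither passed the test, and the median of the 12 receptors was -0.04.

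**Figure D4:**
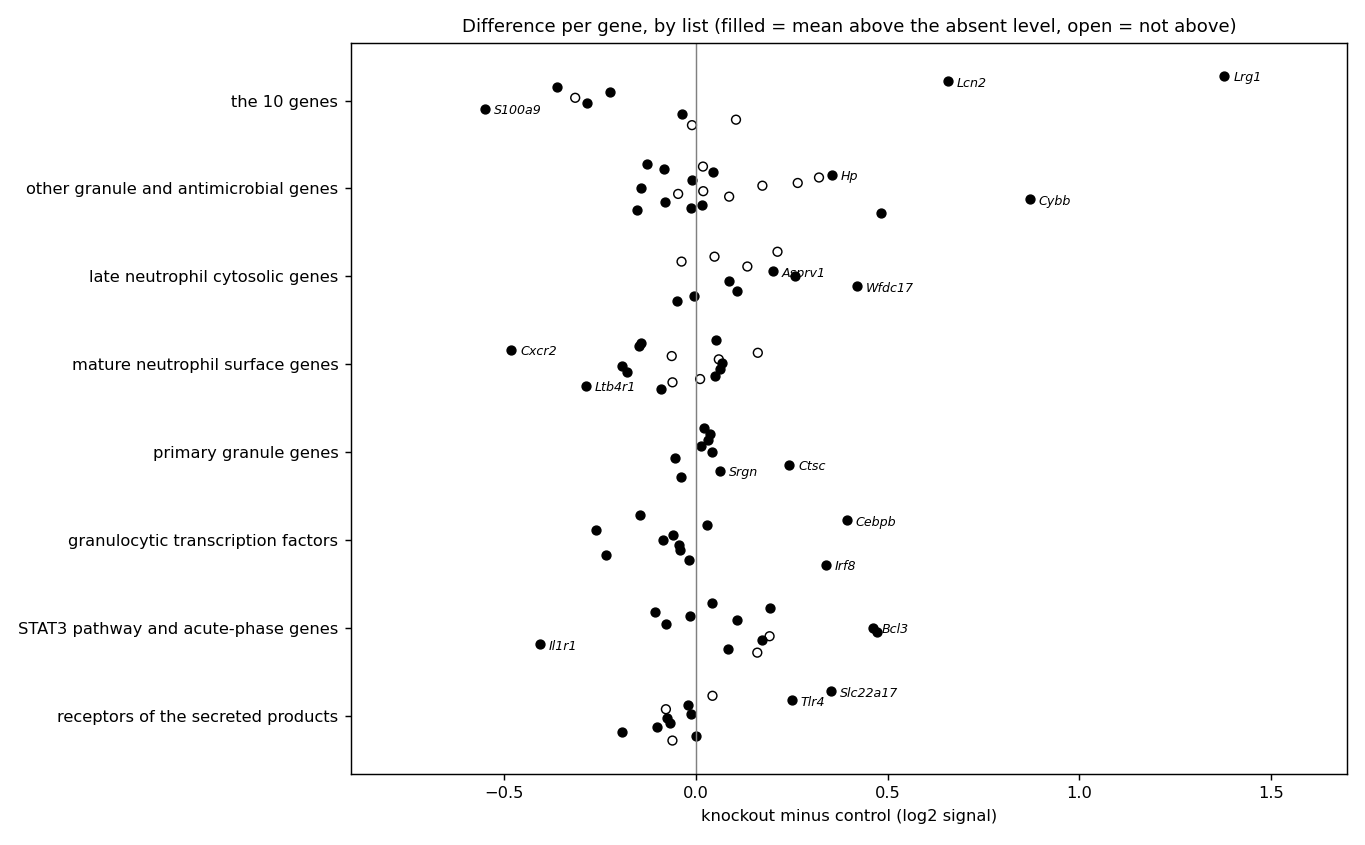
Difference in RMA signal (log2), knockout minus control, of each of the 10 genes and of 7 lists of other genes, 1 point per gene; filled points have a mean above the absent level and open points do not. Lrg1 (1.38) is the farthest to the right, Cybb (0.87) and Lcn2 (0.66) come next, and most other points lie near 0.

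Markers of other cells that the sort could hold were averaged by list. The mean of 12 monocyte and macrophage genes, 10 of them with a mean above the absent level and C1qa and C1qb without, was 6.05 to 6.29 on controls and 6.17 to 6.32 on knockouts. Of these 12 genes, 9, C1qa among them, had a difference above 0, where 50.6% of all genes did. The median of the 12 was 0.16, against 0.002 over all genes. The largest difference was that of the chemokine receptor gene Ccr2, 0.37, with groups that overlapped. Those below 0 were Emr1 (-0.34), Cd68 (-0.16) and C1qb (-0.10). The mean of the 16 mature neutrophil surface genes was 5.11 to 5.23 on controls and 5.02 to 5.21 on knockouts. The mean of 7 erythroid genes was 3.17 to 3.40 and 3.02 to 3.38, that of 8 B cell genes 3.60 to 3.83 and 3.50 to 3.62. That of 7 T and NK cell genes was 2.32 to 2.56 and 2.28 to 2.48. Only 4 of the erythroid, 4 of the B cell and 1 of the T and NK cell genes had a mean above the absent level. These list means thus hold many readings not told apart from no transcript, and say little about those cells. In each of these lists the ranges of the groups overlapped, and their part in the Lrg1 and Lcn2 difference was not tested.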

How the data were processed

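Per the labels' protocols, PicoPure-isolated total RNA went through Ovation Pico WTA amplification before hybridisation to Affymetrix Gene ST arrays. The authors deposited log2 signals, 1 per feature and array. The submitters' processing notes name RMA and limma and give no settings. RMA equalises signal distributions, so a shift of most genes would not be seen. The annotation and build behind the deposited values are not given in the sources used here, and promoter sequences are from RefSeq GRCm38.p6.

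Of 28853 features, 1494 had no symbol and were left out, and the feature of highest mean was kept per symbol (24213 genes). Knockout was compared with control by limma 3.58.1 in R 4.3.3 (lmFit, eBayes, no filter, no covariate), with Benjamini-Hochberg adjustment over all genes and a threshold of 0.05. The fit was tested on simulated data. The precision is limited by the number of arrays, 4 in each group. The members and lists were chosen with earlier results of these data known. Named from each list were the 2 genes of smallest p with both group means above the absent level. The 5 genes most correlated with the mean standardized signal of the members were also named, as were list genes at or under the absent level. Cd48, Flt3, Ly6a, Mpo, Cebpe, Ear2, Epx, Prg2, Siglec5, Pim1, Il4ra, Ccr2, Emr1 and Cd68 fall outside this rule and were chosen after their values were seen. Other settings tried were the replicate block, omission of arrays, feature choice, filters, scaling, variance models, array weights, sex-linked covariates and another threshold. Same-numbered arrays had correlated deviations of -0.11 to 0.15, against -0.29 to 0.36 for differently numbered arrays. This cannot settle whether the numbers pair the samples, which the labels do not say. A marker gene of one cell type list is not reported here and was left out of that list.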

Additional observations from a re-analysis of the deposited data

Results flagged for a closer look

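Lcn2 in the control group was singled out by an array far from the others. Control 3 read 7.42 against 6.95 to 7.02 on the other 3 controls, and its gap to the nearest of them was 0.842 of the group's range, above Dixon's 95% critical value for 4 samples. Chance gives such a gap in about 1 in 20 groups, and 22 groups were checked. Without control 3 the Lcn2 difference was 0.76.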

How the results depend on the processing

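None of the 10 genes passed the threshold under any alternative that was run. The values of the 10 genes were recomputed 234 times in all, and 228 moved by less than the pooled SD within groups. The other 6 came from arrays of one kind of sex-linked signal, with Xist alone Ngp (0.78), Camp (0.57), S100a9 (0.72) and Chil3 (-0.67), and with Y-linked signal alone Lrg1 (2.05) and Lcn2 (1.13). The block, feature choice, filters and variance models could not move a difference of these genes. For S100a8, S100a9, Ngp, Camp and Chil3 the pooled SD, a spread between single arrays, was larger than the difference between the group means. With 1 array left out the difference changed sign for Camp and Chil3. It stayed below 0 for S100a8 (-0.397 to -0.071), S100a9 (-0.853 to -0.029) and Ngp (-0.663 to -0.055). The difference was -0.03 for S100a9 without knockout 4 and 0.12 for Camp without control 3. The number of genes without overlap lay between 2 and 3 with 1 array left out, and the median difference between -0.26 and -0.015. The median within-group correlation lay between 0.31 and 0.58 with 1 array left out, and 7 genes were above the absent level also when it was set from olfactory receptor genes (3.22).

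The number of all genes past the threshold, 1 (Atg12), lay between 0 and 3 with 1 array left out. Among the listed pathway genes it lay between 0 and 1, the 1 being Cybb without control 4. The Atg12 difference lay between -0.982 and -0.882 with an adjusted p of 0.0542 to 0.226. The count of all genes was 0, and Atg12 lost the call, with the replicate number as a block (-0.932, adjusted p 0.227), without knockouts 3 and 4 together (-0.885, 0.499), with arrays centred on their median (-0.939, 0.068), and with a covariate for Y-linked (-0.944, 0.112) or Xist (-0.968, 0.162) signal. The smaller number of arrays or residual degrees of freedom lowers the power of all of these but the centring, whose cause was not tested. The block changed no other call, and whether same-numbered arrays share more than a number is not known.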
